A study of Homo sapiens with 18 samples.

Results

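Collagens are built from 3 chains that wind into a triple helix, which is possible because the helical stretch repeats Gly-X-Y, with glycine opening each triplet of residues. Fibrillar collagens form the banded fibrils of connective tissue. FACIT collagens (fibril-associated collagens with interrupted triple helices) sit on the surface of such fibrils, and transmembrane collagens stay anchored in the plasma membrane with the helix outside the cell. In breast tumors most fibrillar collagen is deposited by fibroblasts, but carcinoma cells also transcribe collagen genes. The 9 genes described here were chosen by symbol among 21411 genes, from the collagens outside types IV, VI, XVII and XVIII. They are not all such genes in the data, and they were chosen with earlier results of these data known. COL1A1, COL5A1, COL11A2 and COL27A1 encode fibrillar chains, COL9A2, COL12A1 and COL16A1 encode FACIT chains, and COL13A1 encodes a transmembrane chain. COL8A1 encodes a short-chain collagen that forms networks, so it belongs to none of the 3 classes.

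Messenger RNA was sequenced from MDA-MB-231 cells, an established triple-negative breast cancer line, grown as spheroids in Matrigel for 7 days, and the study asked which genes depend on Jagged1, a Notch ligand encoded by JAG1. The 18 libraries formed 6 groups of 3 that the labels call biological replicates. Jag1WT is the parental line. Jag1KO pools clones that were each grown from 1 cell after Cas9 had cut JAG1. Jag1KO + rescue carries a plasmid with Jagged1 cDNA in these knockout cells, and Jag1KO + ctrl the empty plasmid, both after G418 selection. The siCtrl group is the parental line transfected with a nontargeting siRNA shortly before seeding, and siJag1 the same line given siRNAs against JAG1. Effects of the edit and of growing clones cannot be told apart in the knockout, and both plasmid groups share the edit and the selection drug. The p-values measure the spread between these libraries.

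The glycine repeat can be read from the genes themselves, and 3 exons are shown because they belong to the members with the clearest differences or the highest level. In each the capitals mark the GGN glycine codon that opens each Gly-X-Y triplet, and glycine codons at other places are in lower case. The first comes from COL5A1 (coding exon 15, chr9:134753850-134753903, plus strand), the second from COL12A1 (coding exon 54, chr6:75103757-75103810, minus strand) and the third from COL13A1 (coding exon 5, chr10:69875128-69875163, plus strand), all in hg38 with GENCODE 44 exons.
COL5A1: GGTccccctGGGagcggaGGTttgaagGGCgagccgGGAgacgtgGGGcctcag
COL12A1: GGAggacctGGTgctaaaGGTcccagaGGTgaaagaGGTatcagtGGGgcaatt
COL13A1: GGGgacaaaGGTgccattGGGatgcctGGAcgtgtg
The first and second exons are 54 bases long, a length that codes for whole Gly-X-Y triplets and is typical of fibrillar collagen genes. Among the coding exons, 21 in COL1A1, 29 in COL5A1, 31 in COL11A2 and 33 in COL27A1 had this length, against 14 in COL9A2, 12 in COL16A1, 4 in COL12A1, 4 in COL13A1 and 0 in COL8A1. The longest unbroken run of such triplets was 338 in COL1A1, COL5A1 and COL11A2 and 217 in COL27A1. It was 113 in COL9A2, 61 in COL8A1, 57 in COL16A1, 44 in COL13A1 and 32 in COL12A1. Only 8.2% of the 3063 codons of COL12A1 lay in such runs of 5 or more triplets, while in the other 8 members the share ran from 53.2% (COL27A1) to 85.5% (COL9A2). COL12A1 was in this respect the member least like a fibrillar gene.

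The JAG1 levels matched the labels in all 18 libraries. JAG1 lay between 433 and 657 CPM (read counts scaled to library size, normalized by the authors with TMM) in Jag1WT, siCtrl and Jag1KO + rescue, and between 110 and 205 CPM in Jag1KO, Jag1KO + ctrl and siJag1. Its level in Jag1KO was not 0. Between 10330581 and 18327890 reads per library were counted on genes, so a count of 0 allows up to 3 reads, or 0.164 to 0.290 CPM depending on the library, and these limits cover counting error only. VIM, CD44 and EGFR, which MDA-MB-231 cells express strongly, together reached 3062 to 5751 CPM, and of ESR1, PGR and ERBB2 only ERBB2 was above 1 CPM. Fibroblast markers were near 0: of 9, none was above 1 CPM in at least 9 libraries, and their summed level was 0.842 to 2.18 CPM. Of 6 endothelial and immune markers 2 passed the filter, CD68 and PECAM1, and the sum of the list was 90.5 to 221 CPM. In 3 libraries the mean level of 20 proliferation genes, on the log2(CPM + 1) scale, stood apart from that of their replicates. It was 4.64 in Jag1KO replicate 1 against 6.00 and 6.29 in the others of the group, 4.83 in Jag1KO + ctrl replicate 3 against 6.44 and 6.89, and 6.76 in siJag1 replicate 2 against 4.71 and 4.84. In the other 3 groups it ranged from 4.51 to 5.54. Where leaving out 1 of these 3 libraries changed a call, both values are given, and so are some values that moved widely.

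The transmembrane chain dominated the transcripts of the 9 genes. Compared per length, COL13A1 had a mean level of 78.7 RPKM (CPM divided by the gene length in kilobases) over the 18 libraries, followed by COL8A1 with 6.45, COL5A1 with 6.33, COL12A1 with 5.41 and COL27A1 with 2.52. COL1A1, the major chain of bone and skin collagen, reached 1.02 RPKM. COL9A2 (0.800), COL16A1 (0.418) and COL11A2 (0.177) were lower still. COL13A1 made up 64.4% to 82.6% of the summed RPKM of the members in each library, with a median of 75.5%.

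**Figure D1:**
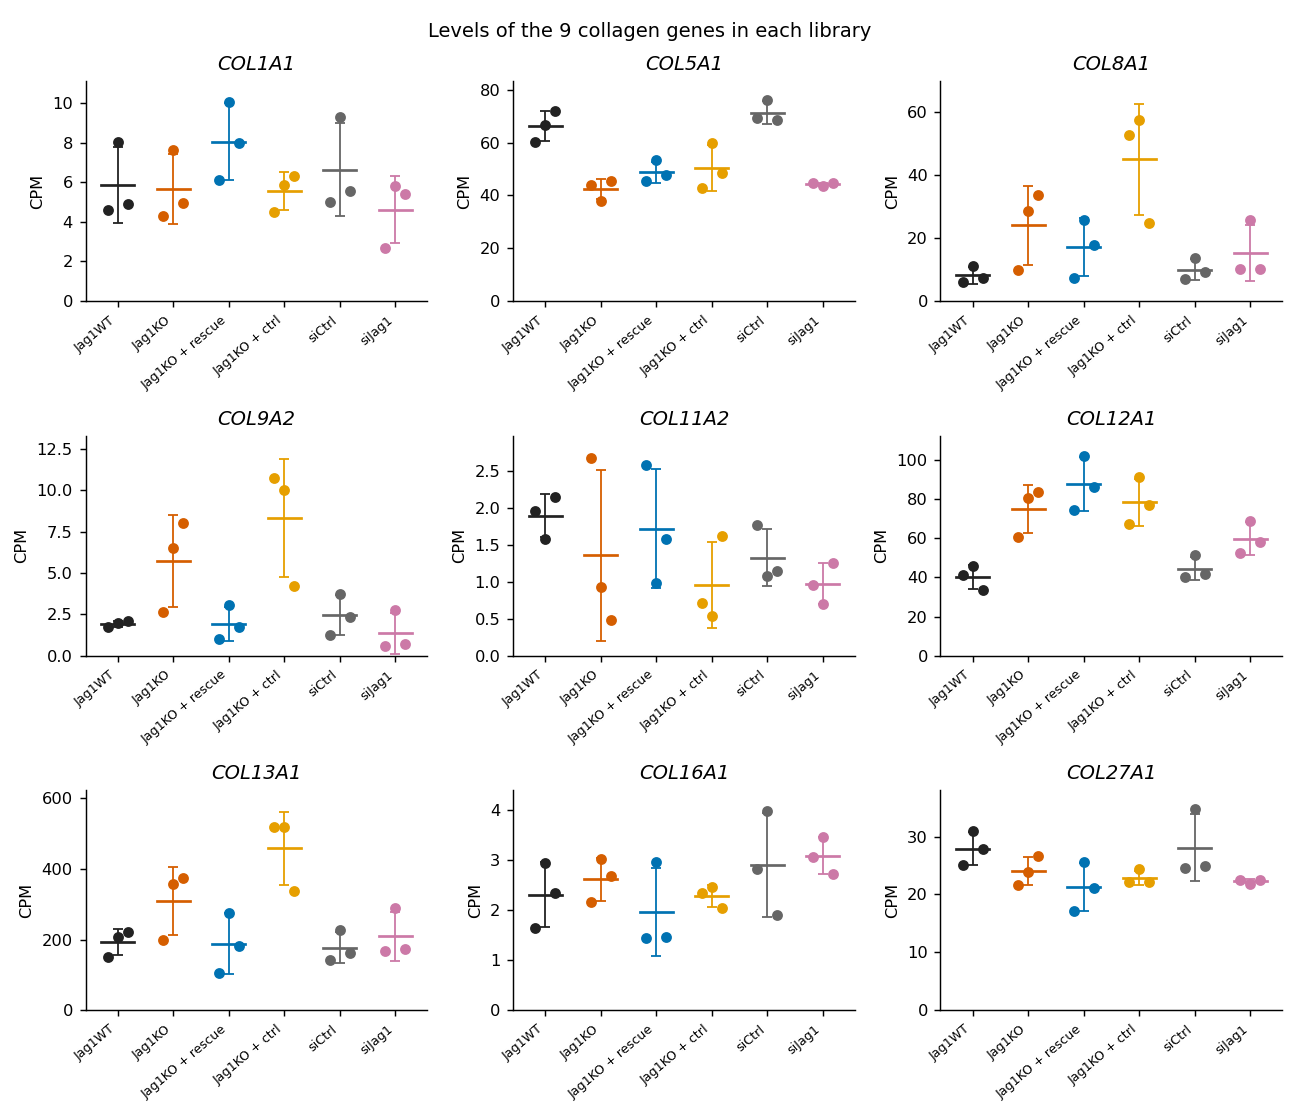
CPM of the 9 collagen genes in the 18 libraries, 1 panel per gene with its own linear axis from 0, 6 groups along the horizontal axis, 1 point per library, and bars for the mean ± SD of 3 replicates. COL5A1 is highest and COL12A1 lowest in Jag1WT and siCtrl, while COL8A1, COL9A2 and COL13A1 spread widely within the groups and have their highest values in Jag1KO + ctrl.

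Genes for the chains with which several members assemble were nearly silent. COL1A2, the partner of COL1A1 in type I collagen, had 0 reads in 14 of the 18 libraries and at most 3 reads in any. COL5A2, the usual partner of COL5A1, lay between 0.189 and 1.41 CPM with a median of 0.761. COL8A2 had 0 reads in 8 libraries and COL9A3 in 10, and COL11A1, which joins COL11A2 in type XI collagen, had a median of 0.0948 CPM. Of 22 related collagen chains, 16 were in the table, and only COL7A1, the chain of the anchoring fibrils beneath epithelia, was above 1 CPM in at least 9 libraries, at 44.0 to 155 CPM and a mean of 10.4 RPKM. The others were not analysed here.

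**Figure D2:**
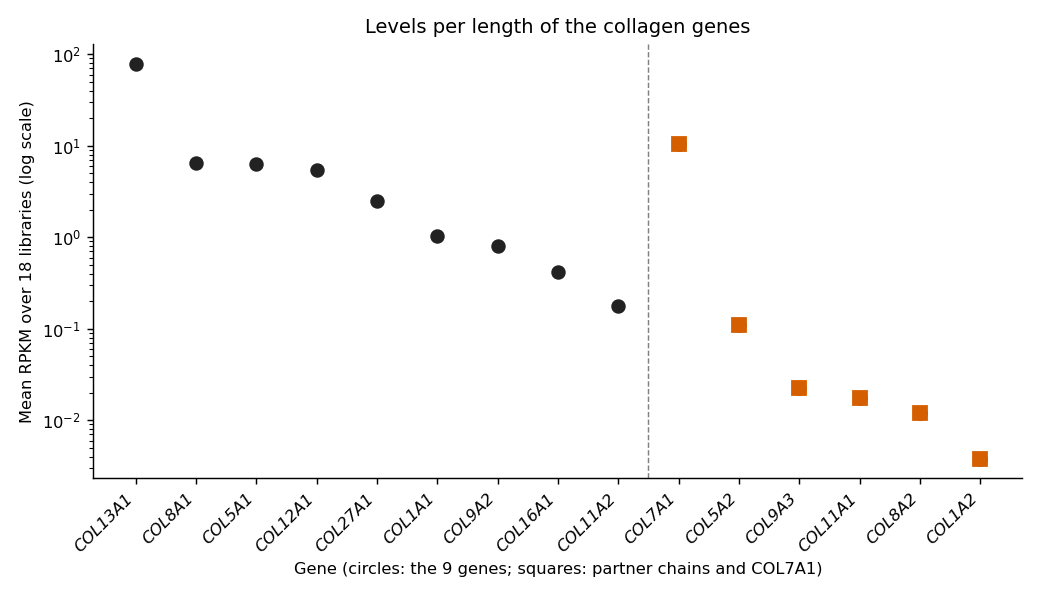
Mean RPKM over 18 libraries, on a logarithmic axis, of the 9 members and of partner or related chains in the table. COL13A1 is highest at 78.7 RPKM, COL7A1 follows at 10.4 RPKM, and the partner chains lie below the members they pair with.

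In Jag1WT against Jag1KO, which asks what the loss of JAG1 changes, none of the 9 genes passed the threshold, an FDR below 0.05 over all genes tested with a fold change above 1.5, in the quasi-likelihood test of edgeR. Of all 12928 genes tested, 0.704% passed it. The groups did not overlap in 3 members, COL5A1 (higher in Jag1WT) and COL9A2 and COL12A1 (lower), beside 13.8% of all genes tested. Among all genes 7.22% were apart on the higher and 6.61% on the lower side. Unadjusted p was below 0.05 in 5 of the 9, against 8.82% of all genes, with COL5A1 on the higher side (4.33% of all genes) and COL8A1, COL9A2, COL12A1 and COL13A1 on the lower (4.49%).

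In Jag1KO + rescue against Jag1KO + ctrl, which asks what returning Jagged1 changes, again 0 of 9 passed, and 0.00776% of 12894 genes did, JAG1 being the 1 gene. Here 3 members had an unadjusted p below 0.05, COL8A1, COL9A2 and COL13A1, all lower with Jagged1, but so had 30.8% of all genes (16.4% on the lower side). Groups did not overlap in 2 of the 9 members, COL9A2 and COL13A1, beside 32.4% of all genes, or 16% counting those lower with Jagged1. In siCtrl against siJag1 the count was 0 of 9 with 0.0156% of 12823 genes past the threshold, and unadjusted p was below 0.05 in 2 members, COL5A1 (higher in siCtrl) and COL12A1 (lower), against 3.83% of all genes, 2.6% higher and 1.23% lower. JAG1 itself missed the threshold there (log2 fold change 1.68 ± 0.191 SE, FDR = 0.111), so that an absent call in the siRNA comparison says little. Non-overlapping groups were found for COL5A1, COL12A1 and COL27A1, beside 10.5% of all genes, 5.15% higher and 5.33% lower.

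The tool mattered for these calls. DESeq2 called 4 members in the knockout comparison, COL5A1 (0.65, FDR = 0.00159), COL8A1 (−1.56, FDR = 0.0106), COL9A2 (−1.57, FDR = 0.0286) and COL12A1 (−0.90, FDR = 0.000267), beside 1.82% of all genes. In the rescue comparison it called COL8A1 (−1.39, FDR = 0.0237), COL9A2 (−2.11, FDR = 0.00175) and COL13A1 (−1.28, FDR = 0.00764), beside 12.2% of all genes, and in the siRNA comparison COL5A1 (0.69, FDR = 1.08e-05), beside 0.187%. The log2 fold changes were nearly those of edgeR. limma on log2(CPM + 1) called 0 members in all 3 comparisons. The edgeR setting mattered too. Fitting all 18 libraries together called COL5A1 (0.64, FDR = 0.0159) and COL12A1 (−0.90, FDR = 0.0165) for the knockout, beside 129 of 12803 genes. For the rescue it called COL9A2 (−2.14, FDR = 0.0181) and COL13A1 (−1.31, FDR = 0.0152), beside 2139 genes, and for the siRNA 0 members.

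**Figure D3:**
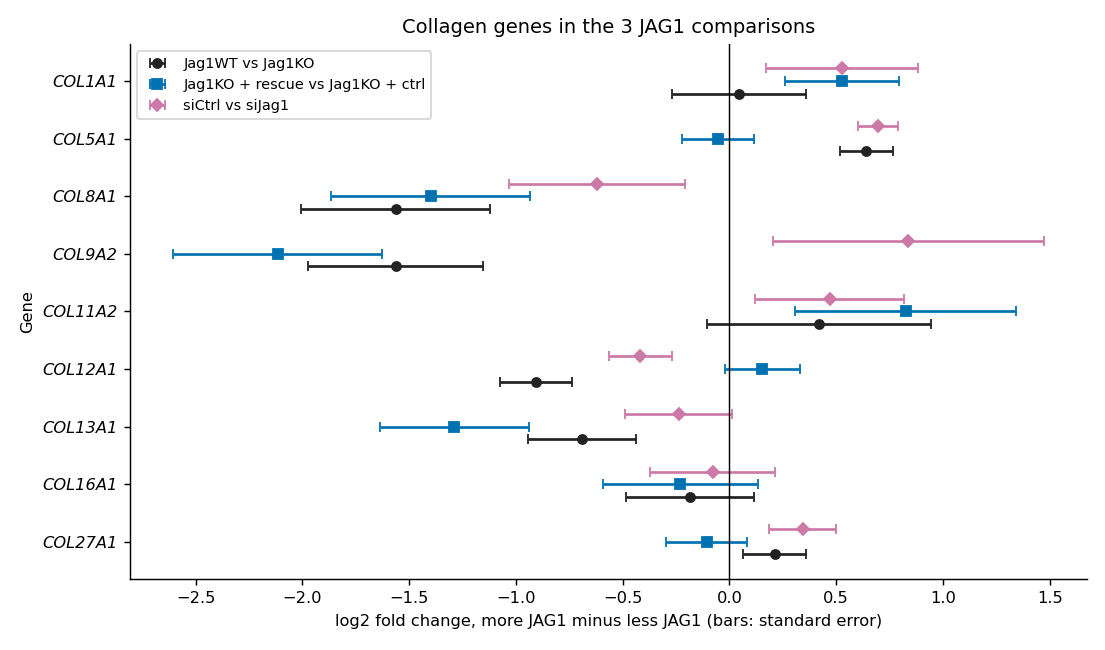
log2 fold change of each gene in the 3 comparisons, from the edgeR fit of each pair of groups, with the standard error as bars. Values above 0 are higher in the group with more JAG1. COL5A1 and COL12A1 lie on opposite sides of 0 in the knockout and siRNA comparisons and near 0 in the rescue comparison.

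Among the fibrillar genes, COL5A1 gave the clearest difference with JAG1 loss. This chain nucleates and limits the diameter of type I fibrils. The Jag1WT libraries held 60.3, 66.7 and 71.9 CPM (66.3 ± 5.81, SD, n = 3) and those of Jag1KO 44.0, 37.9 and 45.3 CPM (42.4 ± 3.94). In siCtrl it was at 69.3, 76.1 and 68.4 CPM (71.3 ± 4.25), and in siJag1 at 44.5, 43.5 and 44.6 CPM (44.2 ± 0.605). Every library of Jag1WT and siCtrl was thus above every library of the knockout and of the knockdown. The log2 fold change was 0.64 ± 0.123 (SE) for Jag1WT against Jag1KO (FDR = 0.0753) and 0.70 ± 0.0943 for siCtrl against siJag1 (FDR = 0.125), and neither passed.

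In COL5A1 the rescue libraries lay among those of the empty plasmid. Jag1KO + rescue was at 45.3, 53.2 and 47.7 CPM (48.8 ± 4.06) and Jag1KO + ctrl at 42.8, 59.7 and 48.6 CPM (50.4 ± 8.57). These groups overlapped, with a log2 fold change of −0.05 ± 0.167 (FDR = 0.838), although JAG1 differed between them by 2.22 ± 0.177 on the log2 scale (FDR = 0.0227). Set against Jag1WT, the rescue libraries were lower in COL5A1 by a log2 fold change of −0.47 ± 0.120 (FDR = 0.0648) with no overlap. The difference between the knockout and the rescue effects was 0.72 ± 0.205 (FDR = 0.0926), and that between the siRNA and the rescue effects 0.77 ± 0.181 (FDR = 0.0838). Both were past the threshold in DESeq2 (FDR = 0.0357 and 0.0112) and without Jag1KO + ctrl replicate 3 in edgeR (0.75, FDR = 0.0327, and 0.79, FDR = 0.0250). A fit of the 3 comparisons together gave COL5A1 an average log2 fold change of 0.42 ± 0.0722 with an FDR of 0.00735, below the required fold. It was the 1 member whose FDR passed in that fit, beside 1.51% of 12803 genes, and 0.937% of genes but 0 of the 9 members passed both criteria.

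COL12A1, the large FACIT chain that bridges fibrils and is induced by mechanical load, had the opposite pattern. Its levels were 41.1, 45.9 and 33.5 CPM in Jag1WT (40.2 ± 6.25) and 60.7, 80.6 and 83.5 CPM in Jag1KO (74.9 ± 12.4), a log2 fold change of −0.90 ± 0.168 (FDR = 0.0667). In siCtrl it was at 40.5, 51.3 and 41.8 CPM (44.5 ± 5.93) and in siJag1 at 52.3, 68.9 and 58.0 CPM (59.7 ± 8.45), with −0.42 ± 0.147 (FDR = 0.969). Both pairs were without overlap, and neither passed.

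In COL12A1, too, the rescue libraries lay with those of the empty plasmid. Jag1KO + rescue held 74.8, 102 and 86.2 CPM (87.7 ± 13.8), the highest mean of the 6 groups, and Jag1KO + ctrl 67.1, 91.1 and 77.1 CPM (78.5 ± 12.1), a log2 fold change of 0.15 ± 0.177 (FDR = 0.554). Against Jag1WT the rescue libraries were higher by 1.10 ± 0.160 on the log2 scale (FDR = 0.0127). With each of the 6 pairs of groups fitted alone in the main edgeR setting and all libraries in, this was the 1 call for a member. In that comparison 3.47% of 12843 genes were called and 1.49% were called higher. The call did not survive the loss of Jag1WT replicate 1 (1.12, FDR = 0.0700), Jag1WT replicate 3 (1.00, FDR = 0.0920) or Jag1KO + rescue replicate 3 (1.12, FDR = 0.0898). The difference between the knockout and the rescue effects was −1.03 ± 0.254 (FDR = 0.0696), past the threshold in DESeq2 (−1.06, FDR = 0.00680) and without Jag1KO + ctrl replicate 3 in edgeR (−1.02, FDR = 0.0257). In the tests of differences 0.545% of 12850 genes passed for knockout minus rescue, 0.0937% of 12805 for siRNA minus rescue and 0.109% of 12814 for knockout minus siRNA, and 0 of the 9 members in each with edgeR. For knockout minus rescue DESeq2 called 6.91% of genes, and edgeR without Jag1KO + ctrl replicate 3 called 18.5%, with COL5A1 and COL12A1 among them in both. For siRNA minus rescue these shares were 4.32% and 14%, with COL5A1 and COL9A2 among them.

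Side by side, COL5A1 and COL12A1 separated the libraries of Jag1WT and siCtrl from all others. The 6 libraries of Jag1WT and siCtrl held 60.3 to 76.1 CPM of COL5A1 and the other 12 held 37.9 to 59.7 CPM, while for COL12A1 the 6 held 33.5 to 51.3 CPM and the 12 held 52.3 to 102 CPM. This split was chosen after the values were seen. Of the 9 members these 2 had no overlap, and 0.57% of 12803 genes had none, 0.398% higher and 0.172% lower in the 6. The rescue libraries, with JAG1 at 534 to 657 CPM, lay with the 12 in both genes. Both genes varied little within groups, with a coefficient of variation of 1.37% to 17.0% for COL5A1 (median 8.54%) and 13.3% to 16.5% for COL12A1 (median 15.5%).

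**Figure D4:**
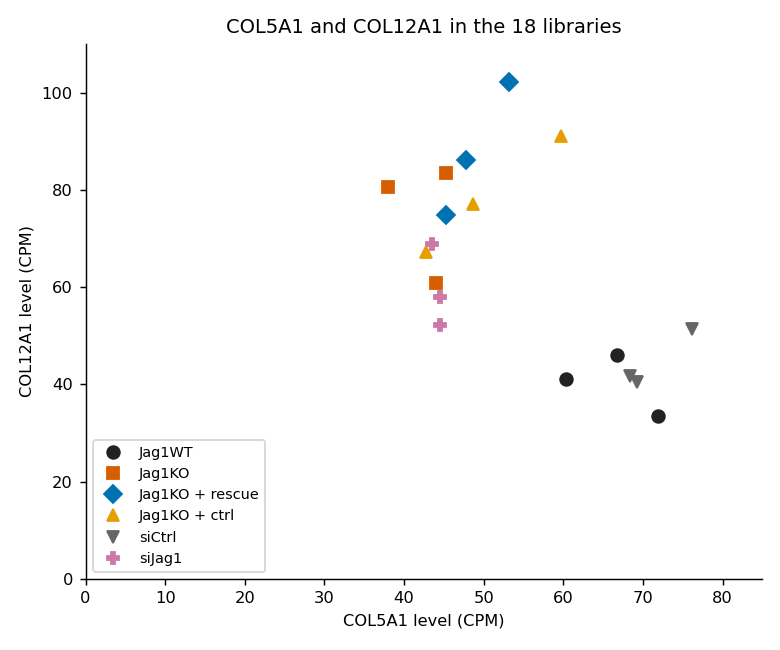
COL5A1 against COL12A1 in CPM, both axes linear, 1 point per library with the group as color and shape. The 6 libraries of Jag1WT and siCtrl lie at high COL5A1 and low COL12A1, and the 12 others, the rescue included, at lower COL5A1 and higher COL12A1.

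Upstream sequence was read for these genes because RBPJ, the DNA-binding partner of the Notch intracellular domain, recognizes TGGGAA. RefSeq start sites (GRCh38.p14) were matched for 7 of the 9 members, with 11 windows of 250 bases before the start, and TGGGAA on either strand stood in those of COL12A1 and COL13A1, beside 20.8% of 35116 such windows of all genes. COL1A1 and COL8A1 had no entry. The 3 matches are shown with 30 bases each on the strand of the gene, the match in capitals. All 3 lie within the gene as GENCODE 44 draws it, which starts further upstream. The first and second lie 144 and 45 bases before the COL12A1 start (chr6:75206180-75206209 and chr6:75206081-75206110, minus strand, the first match on the opposite strand) and the third lies 22 bases before that of COL13A1 (chr10:69801872-69801901, plus strand).
COL12A1, 144 bases before: agtatgcacacgTTCCCAaaagtagacctc
COL12A1, 45 bases before: taaactgagagcTGGGAAcagccctctatt
COL13A1, 22 bases before: gagagattagttTGGGAAgtagcacggatt
The window of COL5A1 (chr9:134641553-134641802, plus strand) held no TGGGAA and no TGANTCA, the AP-1 motif that 6.57% of windows hold, but GGGCGG, the GC box found in 42.6% of windows, at 2 places on the opposite strand. It was 74.0% G and C.
COL5A1: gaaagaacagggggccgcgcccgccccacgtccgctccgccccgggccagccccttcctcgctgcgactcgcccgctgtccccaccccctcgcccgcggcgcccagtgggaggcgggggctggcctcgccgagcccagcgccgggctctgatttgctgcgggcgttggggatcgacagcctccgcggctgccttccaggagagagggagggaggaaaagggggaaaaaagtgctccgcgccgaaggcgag
These matches describe letters only, and binding was not measured.

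COL27A1, a fibrillar chain of cartilage and developing bone, differed in the direction of COL5A1 but by less. Jag1WT held 25.1, 30.9 and 27.8 CPM (27.9 ± 2.92) and Jag1KO 21.7, 23.9 and 26.6 CPM (24.1 ± 2.45). It was at 24.5, 34.8 and 25.0 CPM in siCtrl (28.1 ± 5.81) and 22.4, 21.8 and 22.5 CPM in siJag1 (22.2 ± 0.347). Only the siRNA groups were apart, with a log2 fold change of 0.34 ± 0.158 (FDR = 0.969), and the knockout comparison gave 0.21 ± 0.147 (FDR = 0.721). Jag1KO + rescue (21.3 ± 4.21 CPM) and Jag1KO + ctrl (22.9 ± 1.27 CPM) overlapped, with −0.11 ± 0.189 (FDR = 0.710).

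COL1A1 and COL11A2, the other fibrillar genes, were low in every group. COL1A1 ranged from 2.66 to 10.0 CPM over the 18 libraries with the highest mean in Jag1KO + rescue (8.05 ± 1.95 CPM) and the lowest in siJag1 (4.61 ± 1.70 CPM), and each group overlapped its neighbor in this order. Its log2 fold change was 0.04 ± 0.312 for the knockout, 0.53 ± 0.265 for the rescue and 0.53 ± 0.356 for the siRNA, with FDR from 0.209 to 0.976. COL11A2, which pairs with COL11A1 in cartilage, had 5 to 41 reads per library, or 0.478 to 2.67 CPM. It gave 0.42 ± 0.524, 0.82 ± 0.518 and 0.47 ± 0.348, and no group was apart from the next one in the order of the means. The knockout value rested on single libraries, since it was 1.38 (FDR = 0.0569) without Jag1KO replicate 1 and 0.060 without Jag1KO replicate 3.

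COL13A1, COL8A1 and COL9A2 varied together from library to library. COL13A1, whose chain binds integrins at cell contacts, was at 150, 206 and 221 CPM in Jag1WT (193 ± 37.5) and 199, 357 and 373 CPM in Jag1KO (310 ± 96.2). It was at 104, 277 and 183 CPM in Jag1KO + rescue (188 ± 86.5) and 519, 518 and 339 CPM in Jag1KO + ctrl (459 ± 104). The rescue libraries all lay below those with the empty plasmid, with a log2 fold change of −1.29 ± 0.350 (FDR = 0.105), and Jag1WT overlapped Jag1KO at −0.69 ± 0.253 (FDR = 0.449). In siCtrl the values were 143, 226 and 163 CPM and in siJag1 167, 289 and 172 CPM, which overlapped at −0.24 ± 0.252 (FDR = 0.969), or 0.074 without siJag1 replicate 2.

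COL8A1, a chain of vessel walls and the corneal basement membrane, differed widely between group means and between replicates. Jag1WT held 6.06, 11.2 and 7.30 CPM (8.19 ± 2.68) and Jag1KO 9.92, 28.7 and 33.7 CPM (24.1 ± 12.5). It was at 7.50, 25.8 and 17.9 CPM in Jag1KO + rescue (17.1 ± 9.18) and 52.8, 57.5 and 24.9 CPM in Jag1KO + ctrl (45.1 ± 17.6). The log2 fold change was −1.56 ± 0.443 for the knockout (FDR = 0.290) and −1.40 ± 0.466 for the rescue (FDR = 0.116), with overlapping groups in both. In siCtrl it was at 7.07, 13.6 and 9.29 CPM and in siJag1 at 10.1, 25.6 and 10.2 CPM, where the middle library alone set the difference of −0.62 ± 0.412 (FDR = 0.969), since without siJag1 replicate 2 it was −0.01. Jag1KO + rescue was higher than Jag1WT by 1.04 ± 0.426 on the log2 scale (FDR = 0.178), and this passed with the replicate number as a block (0.94, FDR = 0.00944) and without Jag1KO + rescue replicate 1 (1.41, FDR = 0.0357).

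COL9A2, a FACIT chain of cartilage fibrils, followed the same libraries at a lower level. It was at 1.70, 1.95 and 2.09 CPM in Jag1WT (1.92 ± 0.194) and 2.61, 6.49 and 8.03 CPM in Jag1KO (5.71 ± 2.79), without overlap, and the log2 fold change was −1.56 ± 0.412 (FDR = 0.239). Jag1KO + rescue held 1.02, 3.04 and 1.70 CPM (1.92 ± 1.03), as low as the parental line, and Jag1KO + ctrl 10.7, 10.0 and 4.21 CPM (8.32 ± 3.57), again without overlap, at −2.12 ± 0.489 (FDR = 0.104). The siRNA groups went the other way, with 1.27, 3.71 and 2.36 CPM in siCtrl and 0.567, 2.76 and 0.699 CPM in siJag1, a log2 fold change of 0.84 ± 0.635 (FDR = 0.969), or 1.96 (FDR = 0.396) without siJag1 replicate 2. These values rest on few reads, 18 to 55 per library in siCtrl and 10 to 51 in siJag1. The difference between knockout and siRNA effects was −2.40 ± 0.835 (FDR = 0.999) and that between siRNA and rescue effects 2.98 ± 0.885 (FDR = 0.131), so neither passed in edgeR, while the second did in DESeq2 (FDR = 0.0264) and without Jag1KO + ctrl replicate 3 (3.29, FDR = 0.0291). Without siJag1 replicate 2 these differences were −3.52 and 4.10, and neither passed.

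In these 3 genes the 3 libraries whose proliferation genes stood apart also lay at an end of their group. Jag1KO replicate 1 had the lowest values of its group in COL8A1, COL9A2 and COL13A1, Jag1KO + ctrl replicate 3 the lowest of its group, and siJag1 replicate 2 the highest of its group. In siCtrl the 3 genes had the replicate order of the proliferation mean, and in Jag1KO + rescue replicate 2 was highest in all of them. In Jag1WT the orders differed in part. There replicate 2 was highest in the proliferation mean and in COL8A1, but replicate 3 had the lowest proliferation mean (4.51) and the highest COL13A1 and COL9A2. After removal of the group means, the correlation with the mean of the 20 proliferation genes over the 18 libraries was r = 0.92 for COL9A2, 0.89 for COL8A1 and 0.79 for COL13A1, and with those 3 libraries left out (n = 15) 0.73, 0.76 and 0.65. COL11A2 ran against it at −0.81, and −0.73 without them. COL12A1 gave 0.71, COL16A1 0.57, COL1A1 0.49, COL27A1 0.48 and COL5A1 0.19, and without those libraries COL12A1 gave 0.86, COL27A1 0.86, COL16A1 0.74, COL1A1 0.73 and COL5A1 0.59, so that over the 15 the 3 genes did not stand out. By Spearman rank over the 18 the values were 0.90 for COL9A2, 0.90 for COL8A1 and 0.77 for COL13A1. COL12A1 had 0.72, COL16A1 0.61, COL1A1 0.50, COL27A1 0.45 and COL5A1 0.27. Next, only siJag1 replicate 2 and Jag1KO + ctrl replicate 3 were left out (n = 16), after removal of group means over all 18 libraries. The other libraries of siJag1 and Jag1KO + ctrl stayed shifted by the omitted ones, so this cannot show the relation without them. Computed so, r was 0.89, 0.87 and 0.76 for the 3 genes. COL12A1 then had 0.78, COL27A1 0.62, COL16A1 0.61, COL1A1 0.58 and COL5A1 0.24. These values describe libraries that also share their depth and normalization, and the part of proliferation in the collagen differences was not tested. The proliferation genes differed in the comparisons in the same direction as COL8A1 and COL13A1: none of the 20 was higher with more JAG1 in any of the 3, with median log2 fold changes of −1.15, −1.30 and −0.70, and 1 was called (MCM2, −0.78, FDR = 0.0445, in the knockout comparison). In bulk RNA a smaller share of expressing cells and less RNA per cell cannot be told apart.

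**Figure D5:**
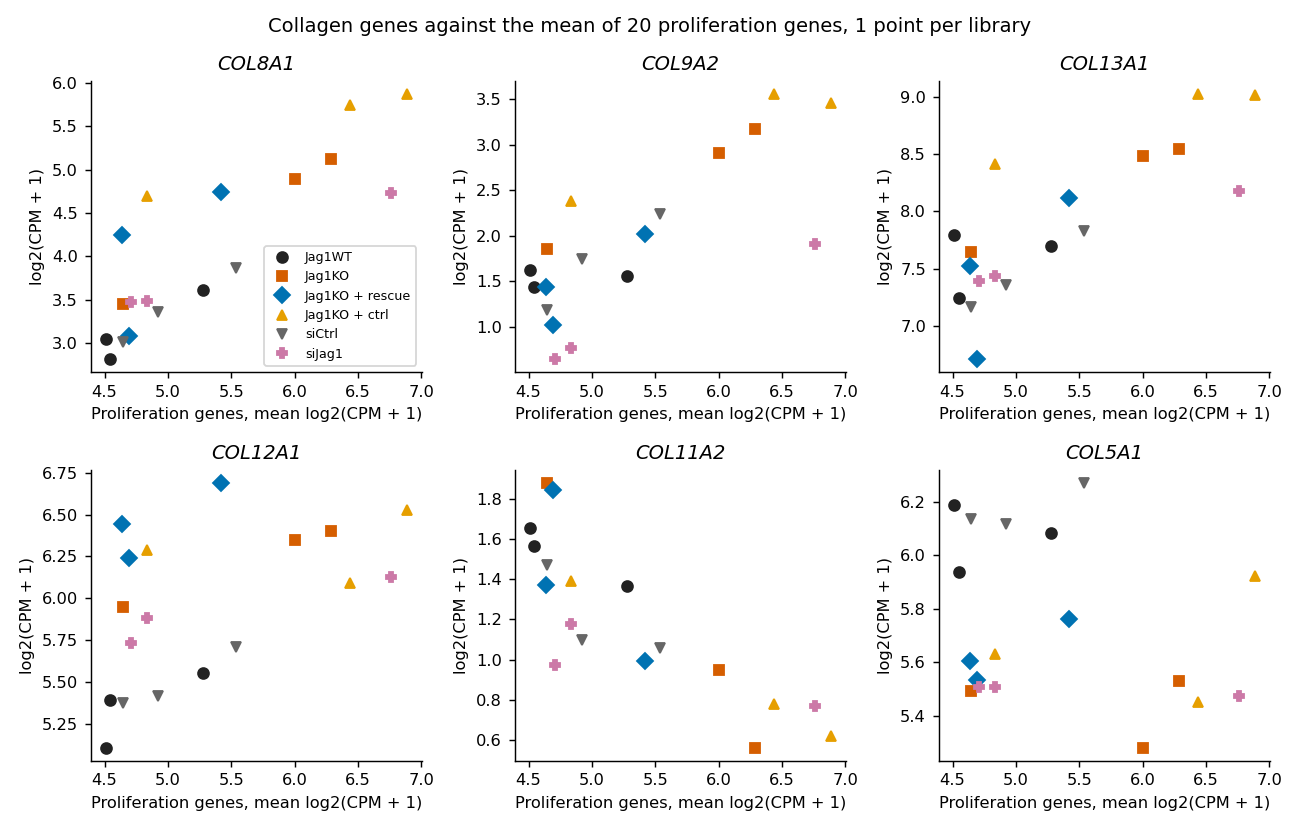
log2(CPM + 1) of 6 members, 1 panel each with its own axis, against the mean log2(CPM + 1) of 20 proliferation genes, 1 point per library with the group as color and shape. COL8A1, COL9A2 and COL13A1 increase along the axis and COL11A2 decreases, while COL5A1 is higher in all libraries of Jag1WT and siCtrl than in those of the other groups.

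Leaving out single libraries changed the calls of these genes. Without Jag1KO replicate 1, 935 genes (7.29%) were called in Jag1WT against Jag1KO and 5 members with them, COL5A1 (0.66, FDR = 0.0166) higher and COL8A1 (−1.95, FDR = 0.00236), COL9A2 (−1.92, FDR = 0.00292), COL12A1 (−1.04, FDR = 0.00312) and COL13A1 (−0.93, FDR = 0.00855) lower in Jag1WT. Without Jag1KO + ctrl replicate 3, 3659 genes (28.7%) were called in the rescue comparison, and among them COL8A1 (−1.69, FDR = 0.0232), COL9A2 (−2.43, FDR = 0.00659) and COL13A1 (−1.46, FDR = 0.0205). COL5A1 and COL12A1 were not called in the rescue comparison whichever 1 of its 6 libraries was left out. In the fit of the 3 comparisons together, leaving out all 3 libraries with proliferation genes apart called COL8A1 (−1.22, FDR = 0.00173), COL9A2 (−0.80, FDR = 0.0320), COL13A1 (−0.78, FDR = 0.00499) and COL11A2 (1.03, FDR = 0.00833), beside 870 genes in all (6.82%). With all libraries in, the same genes gave −1.20 (FDR = 0.0569), −0.96 (FDR = 0.119), −0.75 (FDR = 0.0630) and 0.57 (FDR = 0.228). Without Jag1KO replicate 1 alone, this fit called COL8A1 (−1.33, FDR = 0.0226) and COL13A1 (−0.83, FDR = 0.0329). Without Jag1KO + ctrl replicate 3 alone, it called COL8A1 (−1.30, FDR = 0.00992), COL9A2 (−1.06, FDR = 0.0340) and COL13A1 (−0.81, FDR = 0.0131). Of 18 fits that each left out 1 library, 3 called COL8A1, 3 COL13A1 and 1 COL9A2. The range of genes called in such fits is given in the last section. The 3 libraries were chosen after the data were seen, by genes with which these members correlate within groups. Their removal narrows the spread of these members, so the calls made without them are not independent support. With all 18 libraries kept, some alternative fits of the average also called COL8A1 and COL13A1. These were DESeq2 (FDR = 0.00281 and 0.00741, beside 397 genes), no filter (FDR = 0.0315 and 0.0399, beside 235) and the replicate block (FDR = 0.0274 and 0.0212, beside 389). Other scaling and limma called 0 members, as did the main fit.

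COL16A1, a FACIT chain of skin and smooth muscle matrix, differed little between groups. It ranged from 1.43 to 3.98 CPM, every group overlapped the next in the order of means, and the log2 fold changes were −0.19 ± 0.299, −0.23 ± 0.362 and −0.08 ± 0.294, with FDR of 0.902, 0.672 and 0.987. PEF1-AS1 runs over 9 of its exons on the opposite strand, and lncRNAs without a name do so over 2 exons each of COL1A1 and COL5A1. Since the strand setting of the counting is not given in the sources used here, reads from these genes could be mixed with those of the collagens.

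The comparisons in which JAG1 was not altered on purpose served as a background. In Jag1KO + ctrl against Jag1KO, 0 of 8 members tested passed (COL11A2 was below the filter) and 0 of 13004 genes, with 5.81% of genes but no member at an unadjusted p below 0.05 in edgeR. Of the 8, 5 were higher and 3 lower with the empty plasmid. On the log2 scale COL8A1 was higher by 0.89 ± 0.471 (FDR = 0.760), COL13A1 by 0.55 ± 0.276 (FDR = 0.760) and COL9A2 by 0.54 ± 0.482 (FDR = 0.798). Without Jag1KO replicate 1 these were 0.52, 0.31 and 0.18. In siCtrl against Jag1WT 0 of 9 members and 0 of 12847 genes passed, with 1.38% of genes and no member at an unadjusted p below 0.05. DESeq2 and limma called 0 members in either. These comparisons share libraries with the others.

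The machinery that modifies and cuts collagen chains was counted from lists of 31 biosynthesis genes, 15 genes of fibril-associated matrix, 8 collagen receptors and 8 collagen-degrading proteases. Of the biosynthesis genes 24 were tested in Jag1WT against Jag1KO, 15 above 0 and 9 below, at a median of 0.15 on the log2 scale beside −0.01 over all genes, and 1 passed. This was BMP1, the protease that removes the C-propeptide of fibrillar procollagens, at 0.86 ± 0.128 (FDR = 0.0322). BMP1 was at 34.7 to 40.3 CPM in Jag1WT and 37.7 to 43.8 CPM in siCtrl, and at 19.4 to 21.7 CPM in Jag1KO, 22.9 to 25.9 CPM in siJag1, 19.9 to 21.9 CPM in Jag1KO + rescue and 19.4 to 22.8 CPM in Jag1KO + ctrl. It thus split the libraries as COL5A1 did, and its knockout and rescue effects differed by 0.91 (FDR = 0.0486). In the rescue comparison 24 were tested with 9 higher and 15 lower (median −0.06) and in the siRNA comparison 25 with 18 higher and 7 lower (median 0.15), and 0 passed in either. Against Jag1WT the rescue libraries were higher in SERPINH1, the collagen chaperone (0.75, FDR = 0.0445), and lower in BMP1 (−0.85, FDR = 0.0147).

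Of the receptors, all 8 were tested and 0 passed in the 3 comparisons, with 5 higher and 3 lower for the knockout, 2 and 6 for the rescue and 5 and 3 for the siRNA, and median log2 fold changes of 0.34, −0.63 and 0.07 beside −0.01, 0.00 and −0.01 over all genes. ITGA1, a chain of a collagen-binding integrin, was called lower in the rescue libraries than in Jag1WT (−1.25, FDR = 0.0372), and its knockout and rescue effects differed by 1.73 (FDR = 0.0486). In the fibril-associated list 4 of 15 were tested and in the protease list 4 of 8, and 0 passed in either list in the 3 comparisons. The medians were 0.45, −0.04 and 0.32 for the first list and 0.34, 0.11 and −0.03 for the second. LOXL1, an enzyme that cross-links elastin and collagen, was called in the fit of the 3 comparisons together (−1.01, FDR = 0.0429). Its values in the single comparisons were −0.38 (FDR = 0.810) for the knockout, −2.52 (FDR = 0.104) for the rescue and −0.09 (FDR = 0.985) for the siRNA, so that the average came mostly from the rescue.

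Genes most alike to 8 of the members were found from the correlation of log2(CPM + 1) over the 18 libraries among 12802 genes, as a description of libraries that share groups and depth. For COL5A1 these were MELTF (r = 0.88), BMP1 (0.87) and NEBL (0.87), and for COL12A1 MITF (0.93), MAGEA11 (0.92) and ZNF300 (0.91). COL8A1 was most like PDE1C (0.97), PTN (0.96) and SRGN (0.95), COL13A1 like DMBT1 (0.96), BCKDK (0.95) and BEX3 (0.95), and COL9A2 like DNAJC22 (0.93), ARSJ (0.93) and SEMA3B (0.92). The nearest genes were ZMIZ2, TOX2 and KCNMA1 for COL27A1 (0.89 to 0.87), RASA1, BOLA3 and PXN for COL16A1 (0.88 to 0.85) and DDX39A, DDX5 and DUSP1 for COL1A1 (0.83 to 0.78). Among the members themselves, after removal of the group means, COL8A1 and COL13A1 had r = 0.95, COL8A1 and COL9A2 0.94 and COL9A2 and COL13A1 0.91, whereas COL11A2 ran against COL8A1 (−0.92) and COL9A2 (−0.87). COL5A1 and COL12A1, which differed in opposite directions between groups (−0.63 over all libraries), had 0.36 within them.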

How the data were processed

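Stranded mRNA libraries were aligned by the authors to hg38, and uniquely mapped reads were counted per gene (featureCounts, R 3.6.1 and edgeR 3.28.0 per the submitters' processing notes). The aligner and the strand setting are not given in the sources used here. The deposited counts are unnormalized whole numbers. The deposited signal (CPM) is these counts scaled by the authors with TMM, and the deposited RPKM divide them by gene length. The members and gene lists were chosen with earlier results of these data known. All 9 members were named in every comparison, and of the lists the called genes, partner chains and JAG1. For each member the 3 genes most correlated with it were named, and those of COL11A2 are not reported here. Of the per-sample RPKM columns, 3 matched no label and were not used. Rows without a symbol (292) took at most 0.0442% of reads.

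The counts were tested with the quasi-likelihood test of edgeR 4.0.16 (R 4.3.3), TMM factors and Benjamini-Hochberg FDR, on genes for which 50% or more of the libraries fitted exceeded 1 CPM. The authors tested log2 values with ROTS, which was not installed. A call needed an FDR below 0.05 together with a fold change above 1.5. Each comparison used its own 6 libraries. Differences between comparisons used 12 libraries, and the average of the 3 used 18. Standard errors are the log2 fold change over the root of F. Scripts were tested on simulated data. The alternatives were other scaling, DESeq2 1.42.0, limma 3.58.1 on log2(CPM + 1), no filter, 1 fit of 18 libraries, the replicate number as a block and leaving out libraries. Deviations of libraries with the same number correlated at 0.542, 0.522 and 0.263 in siCtrl and siJag1, at 0.594, 0.711 and 0.209 in siCtrl and Jag1WT, and at 0.540, 0.601 and 0.369 in Jag1KO + rescue and Jag1WT, so that the block is taken to pair these. In the other comparisons at least 1 of 3 was below 0.1. Any pair of replicates differed by more than sampling noise.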

Additional observations from a re-analysis of the deposited data

How the results depend on the processing

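The replicate block was tried in every comparison. From the correlated deviations, it was taken to pair the libraries in the siRNA comparison, where no member's call changed. The same was assumed for Jag1KO + rescue against Jag1WT, where COL8A1 joined COL12A1 (0.94, FDR = 0.00944, 2 members, 1345 genes). The labels give only numbers, so they do not show that these libraries were paired. In Jag1WT against Jag1KO deviations of the same number correlated at 0.632, 0.667 and −0.014, so whether they pair is uncertain. With the block 5 members and 283 of 12928 genes were called there. The members were COL5A1 (0.64, FDR = 0.0194), COL8A1 (−1.45, FDR = 0.0239), COL9A2 (−1.48, FDR = 0.0399), COL12A1 (−0.90, FDR = 0.0159) and COL13A1 (−0.66, FDR = 0.0144). Genes called with it were 3 in the rescue, 4 in the siRNA, 1 in siCtrl against Jag1WT, 389 in the average (2 members) and 0 in siRNA minus rescue.

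With DESeq2, 235 genes (4 members) were called for the knockout, 1572 (3 members) for the rescue, 24 (1 member) for the siRNA, 13 in Jag1KO + ctrl against Jag1KO, 880 in Jag1KO + rescue against Jag1WT and 397 (2 members) in the average. For differences it called 33 genes for knockout minus siRNA, 888 (2 members) for knockout minus rescue and 553 (2 members) for siRNA minus rescue. The fit of all 18 libraries called 2 members in the knockout and 2 in the rescue, with 2139 genes in the rescue, 7 in the siRNA and 1 in Jag1KO + ctrl against Jag1KO. limma called 2 genes in the rescue and 0 in the siRNA. Without a filter 162 genes (2 members) were called for the knockout, 2 for the rescue, 8 for the siRNA, 746 in Jag1KO + rescue against Jag1WT, 235 (2 members) in the average and 182 in knockout minus rescue. Leaving out the 3 libraries with proliferation genes apart, chosen after seeing the data, gave 870 genes and 4 members in the average.

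Leaving out 1 library at a time gave 8 to 935 genes and 0 to 5 members in the knockout, 0 to 3659 and 0 to 3 in the rescue, 0 to 4 genes in the siRNA, 0 to 302 genes in Jag1KO + ctrl against Jag1KO, 41 to 1245 and 0 to 2 in Jag1KO + rescue against Jag1WT, and 51 to 857 and 0 to 3 in the average. Differences gave 0 to 15 genes (knockout minus siRNA), 16 to 2362 with 0 to 2 members (knockout minus rescue) and 0 to 1777 with 0 to 2 members (siRNA minus rescue). Directions turned only when 1 library was left out, among the member values printed: COL1A1 (−0.25 to 0.33) and COL16A1 (−0.39 to 0.019) in the knockout, COL5A1 (−0.17 to 0.086) and COL27A1 (−0.27 to 0.034) in the rescue, and COL13A1 (−0.44 to 0.074) and COL16A1 (−0.37 to 0.14) in the siRNA. The cause was not tested. COL11A2 rested on 5 to 41 reads per library.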
